A study of Oryza coarctata with 5 samples.

Results

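In *Oryza coarctata* (*Porteresia*), a wild halophytic relative of rice, 200 assembled transcripts were examined that were low in submerged plants both without and with salt. They were the 200 lowest-scoring of 21736 eligible transcripts, out of 152367 listed. A transcript was eligible with RPKM (reads per kilobase, corrected for the depth of each library) above 0 in all 5 libraries and of at least 5 in both the water control and 450 mM NaCl. Its score was the larger, that is the weaker, of its log2 ratios of RPKM + 0.5 for submergence in water over the water control and for submergence in 450 mM NaCl over 450 mM NaCl. The members therefore make up 0.920% of the eligible transcripts and were chosen by the measured values of 4 libraries. The library at 700 mM NaCl entered only through the requirement of a value above 0.

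The plants were mature *Oryza coarctata* collected in nature, and each of 5 treatments gave 1 library: submerged in water (plain water), submerged in 450 mM sodium chloride (salt water), kept in water as the control, kept in 450 mM sodium chloride, or kept in 700 mM sodium chloride. All 5 share the same plant source, and no genotype, age or duration is given in the sources used here. With 1 library per treatment there was no replicate check, the spread between plants is unknown, and no test between treatments was run. In bulk RNA, fewer cells of a type and less RNA per cell cannot be told apart. Transcripts carry assembly numbers and no gene names, so the labelled plant material could not be checked against markers and no transcript is assigned a function. Near-identical copies in a polyploid genome can share reads, and several assembled transcripts can belong to 1 gene.

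As background, water around a shoot slows the exchange of oxygen and carbon dioxide and dims the light, and flooded plants commonly save energy by lowering the transcripts of growth, photosynthesis and transport. Salt in the root medium acts differently, first by drawing water out of the plant and then through the ions themselves. *Oryza coarctata* grows where tides bring both, and its leaves carry hairs that secrete salt. A transcript level is the balance of synthesis and decay, so a low level under water can come from either.

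In the libraries of submerged plants the members made up a very small part of the transcript pool. Their summed RPKM was 0.0686% of the library's sum under plain water and 0.218% under salt water, against 1.32% in the water control, 1.59% at 450 mM NaCl and 2.03% at 700 mM NaCl. The 4 members most abundant in the control supplied 23.9% of the members' sum there. Without them the shares were 0.0493% and 0.164% in the submerged libraries, and 1.0%, 1.21% and 1.57% in the control and at 450 and 700 mM NaCl. The order of the 5 libraries was the same without these 4 transcripts.

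The median over the 200 members was 0.639 RPKM under plain water, 2.21 under salt water, 16.4 in the water control, 19.9 at 450 mM NaCl and 24.7 at 700 mM NaCl. The median of all eligible transcripts stayed between 12.9 and 13.8 RPKM in every library. Under plain water 122 members lay below 1 RPKM, where 1.66% of the eligible transcripts did. Under salt water 46 members did, where the share of eligible transcripts was 0.235%. Since low values under water chose the members, these counts describe the set and test nothing. Their range was wide: the lowest to the highest member ran from 0.0148 to 58.9 RPKM under plain water, from 0.0888 to 150.1 under salt water, from 5.06 to 983 in the control, from 5.12 to 1164 at 450 mM NaCl and from 5.55 to 1405 at 700 mM NaCl.

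**Figure D1:**
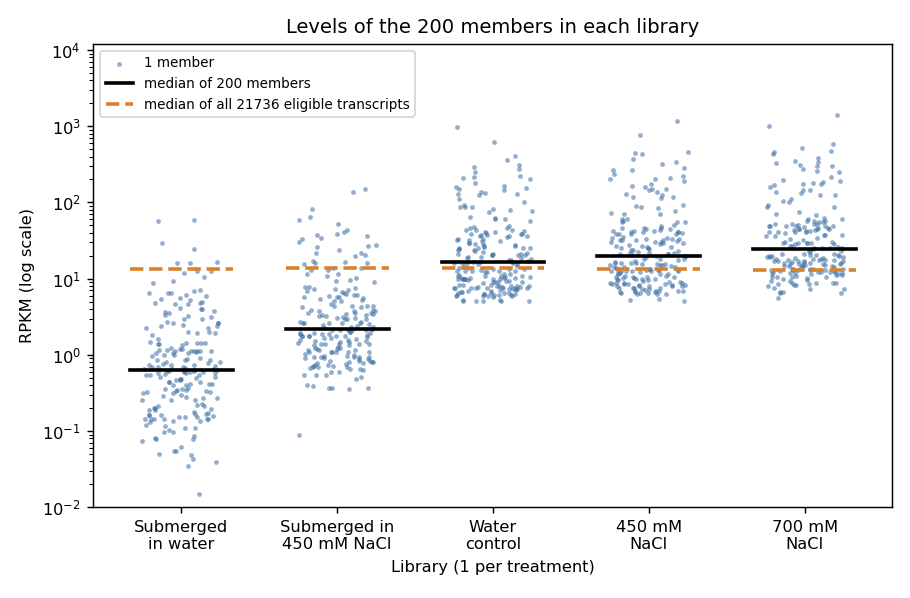
RPKM (log scale) of each of the 200 members in the 5 libraries, 1 point per transcript, with the median of the members (black) and of all 21736 eligible transcripts (dashed). The members' median is 0.639 under plain water and 24.7 at 700 mM NaCl, while the dashed line stays between 12.9 and 13.8.

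The ratios that made up the score were uneven between the 2 settings. On the scale of log2 (RPKM + 0.5), submergence in water over the control had a median of −3.64 (quartiles −4.31 and −3.23) among members, against −0.08 over all eligible transcripts. Submergence in 450 mM NaCl over 450 mM NaCl had a median of −2.68 (quartiles −3.13 and −2.48), against 0.02. By the rule all 200 members were at least 4-fold lower in both contrasts, which holds for 1.48% of eligible transcripts (7.41% were at least 2-fold lower in both). In plain RPKM, without the added 0.5, the median member was 25.6-fold lower under plain water and 7.92-fold lower under salt water. At least 8-fold lower on the log2 scale were 165 members in water and 59 in salt, where 1.59% and 0.271% of eligible transcripts were. At least 16-fold lower were 72 and 6, where 0.455% and 0.0276% were.

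The contrast in salt was the weaker of the 2 and so set the score for 185 members, and the contrast in water for 15. The difference between them, salt minus water, had a median of 0.93 (quartiles 0.43 and 1.47) on the log2 scale, against 0.11 over all eligible transcripts. This difference is made of the same ratios that chose the members. Both contrasts are bounded by the added 0.5, since a transcript at 5 RPKM cannot go below −3.46. Members with 5 to 10 RPKM in the control had a median of −3.31 in water (64 members), those with 10 to 50 RPKM −3.88 (98 members), and those at 50 RPKM or more −4.43 (38 members). In salt these medians were −2.59, −2.71 and −2.77. Across the 200 members the 2 contrasts were related with r = 0.59 (Pearson) and rho = 0.51 (Spearman), a description of transcripts from the same 4 libraries.

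**Figure D2:**
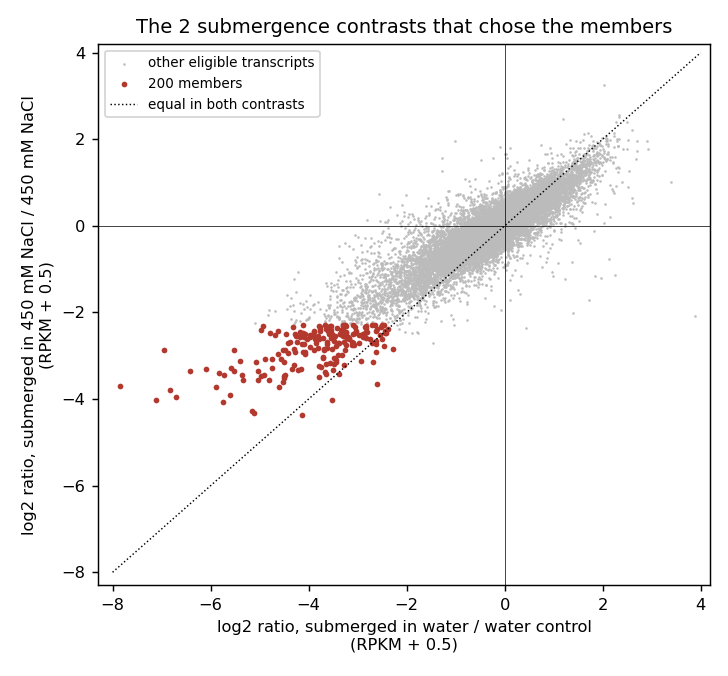
Log2 ratios (RPKM + 0.5) of submergence in water over the water control (horizontal) and of submergence in 450 mM NaCl over 450 mM NaCl (vertical), for the 200 members (red) and the other eligible transcripts (grey). The members occupy the lower left by the rule, and 185 of them lie above the dotted line of equal ratios.

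Salt and plain water could also be compared within submerged plants. The level under salt water was above that under plain water for 193 of 200 members, where 57.4% of eligible transcripts were, and for 177 the reads differed in this direction beyond counting error, where 43.3% did (exact 95% interval of the ratio of reads, counting error only). A difference of at least 2-fold on the log2 scale was seen for 118 members, where 7.43% of eligible transcripts reached it, and of at least 4-fold for 28, where 1.18% did. On this scale no member was at least 2-fold lower under salt water, where 1.01% of eligible transcripts were. The median log2 ratio was 1.14 among members and 0.07 over all eligible transcripts. Both libraries took part in the score. Submergence in 450 mM NaCl over the water control was at least 2-fold lower for all 200 members, where 6.21% of eligible transcripts were, with a median log2 ratio of −2.49. The libraries of this ratio also entered the score. No member had a log2 ratio of 450 mM NaCl over the control above 1.12. The rule therefore all but fixed this count, which tests nothing.

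The 8 lowest scores belonged to transcripts that were moderately to highly abundant out of water. Pc_TC018863, the lowest at −4.32 and 1484 nt long, stood at 0.162 RPKM under plain water, 0.882 under salt water, 22.5 in the control, 27.1 at 450 mM and 40.4 at 700 mM NaCl. Pc_TC105779 (537 nt) stood at 0.165 and 1.09 RPKM under plain and salt water, and at 23.0 in the control, 30.4 at 450 mM and 29.8 at 700 mM NaCl. Both were close to absent under plain water, from 19 and 7 reads, and had 98 and 44 reads under salt water. Neither submerged library came near the other 3.

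Pc_TC066979 (300 nt) was the exception among the 8 in that its values under plain and salt water lay close together. It stood at 1.43 RPKM under plain water, 1.96 under salt water, 33.5 in the control, 50.1 at 450 mM and 51.7 at 700 mM NaCl. The submerged libraries held 34 reads without and 44 reads with salt, and the interval of their ratio, 0.853 to 2.20, spans 1. It was 23.4-fold lower in water (95% counting interval 16.5 to 34.1) and 25.6-fold lower in salt (18.9 to 35.4).

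Another 4 of the 8 stood far higher under salt water than under plain water. Pc_TC065510 (872 nt) stood at 1.5 RPKM under plain water, 20.2 under salt water, 276 in the control, 336 at 450 mM and 474 at 700 mM NaCl. Its reads made it 184-fold lower in water (152 to 226) and 16.7-fold lower in salt (15.7 to 17.6). Pc_TC025785 (866 nt) had a like profile at a lower level, with 0.336 and 7.0 RPKM under plain and salt water, 87.1 in the control, 116 at 450 mM and 167 at 700 mM NaCl. The separation of the submerged libraries was 13.5-fold (11.0 to 16.7) for Pc_TC065510 and 20.8-fold (13.7 to 33.2) for Pc_TC025785, far beyond counting error. Pc_TC037675 (825 nt) had 0.199 and 5.89 RPKM under plain and salt water, 78.6 in the control, 88.6 at 450 mM and 174 at 700 mM NaCl, and was the only one of the 8 to be at least 2-fold above the control at 700 mM. Pc_TC037673 (362 nt), whose number lies close by, had 1 read under plain water (0.0350 RPKM) and 40 reads under salt water (1.48 RPKM). In the other libraries its values were 28.4 RPKM in the control, 32.6 at 450 mM and 52.6 at 700 mM NaCl, so its 812-fold lower level in water has an interval of 145 to 32117. The last of the 8, Pc_TC077835 (266 nt), stood at 0.476 and 2.11 RPKM under plain and salt water, 46.8 in the control, 38.5 at 450 mM and 49.2 at 700 mM NaCl. For it the 700 mM library and the control did not differ beyond counting error (ratio 1.05, 0.947 to 1.17).

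The 4 most abundant members were also low under water, but 3 of them stayed above the eligible median of 13.4 RPKM under plain water. Pc_TC004117 (1390 nt) led the control with 983 RPKM, and stood at 57.7 under plain water, 150.1 under salt water, 1164 at 450 mM and 1405 at 700 mM NaCl. Pc_TC014581 (1300 nt) stood at 58.9 RPKM under plain water, 135 under salt water, 613 in the control, 765 at 450 mM and 1015 at 700 mM NaCl. These were the only members above 100 RPKM under salt water, and none was under plain water, whereas 25 members exceeded that level in the control and 35 at 700 mM NaCl. Of the eligible transcripts 3.75% exceeded it under plain water, 3.93% under salt water, 3.86% in the control and 3.92% at 700 mM NaCl. Pc_TC030851 (1579 nt) had 16 and 58.4 RPKM under plain and salt water, 407 in the control, 459 at 450 mM and 432 at 700 mM NaCl. Pc_TC025547 (1475 nt) had 12.7 and 52.2 RPKM there, 356 in the control, 444 at 450 mM and 522 at 700 mM NaCl. With at least 1484 reads behind each of these values the counting intervals are narrow: under plain water Pc_TC004117 was 17.0-fold lower than in the control (16.6 to 17.5), Pc_TC014581 10.4-fold (10.1 to 10.7), Pc_TC030851 25.5-fold (24.3 to 26.6) and Pc_TC025547 27.9-fold (26.5 to 29.4).

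The largest gaps between the 2 contrasts ran one way, with the contrast in salt the weaker. In Pc_TC094501 (445 nt) the level was 0.398 RPKM under plain water and 15.4 under salt water, with 205 in the control, 206 at 450 mM and 249 at 700 mM NaCl. Pc_TC125462 (632 nt) stood at 0.601 RPKM under plain water, 21.8 under salt water, 136 in the control, 162 at 450 mM and 190.4 at 700 mM NaCl. These 2 and Pc_TC065510 had the highest differences of contrasts, at 4.14, 4.10 and 3.09. Under salt water they stood at 38.6 times (22.8 to 71.1), 36.3 times (25.3 to 54.1) and 13.5 times the level under plain water. In plants out of water at 450 mM NaCl, Pc_TC094501 stood at 1.0 times its control level (0.967 to 1.04). Pc_TC125462 stood at 1.18 times (1.14 to 1.23) and Pc_TC065510 at 1.22 times (1.19 to 1.25).

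At the other end, Pc_TC047311 (451 nt) stood at 0.646 RPKM under plain water from 23 reads, 0.0888 under salt water from 3 reads, 6.5 in the control, 6.93 at 450 mM and 8.39 at 700 mM NaCl. It was 7.27-fold lower in salt than in plain water among submerged plants, with an interval of 2.20 to 37.8, although the added 0.5 shrinks this to −0.96 on the log2 scale. Pc_TC098785 (206 nt) and Pc_TC084248 (200 nt) followed, with differences of −0.56 and −0.51. Their submerged libraries without and with salt held 19 and 15 reads for Pc_TC098785 and 10 and 6 reads for Pc_TC084248, and both intervals of the ratio spanned 1. A lower value under salt water than under plain water was seen in 7 members. Beyond counting error this held for 1 of the 200 members, where it held for 29.9% of eligible transcripts.

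**Figure D3:**
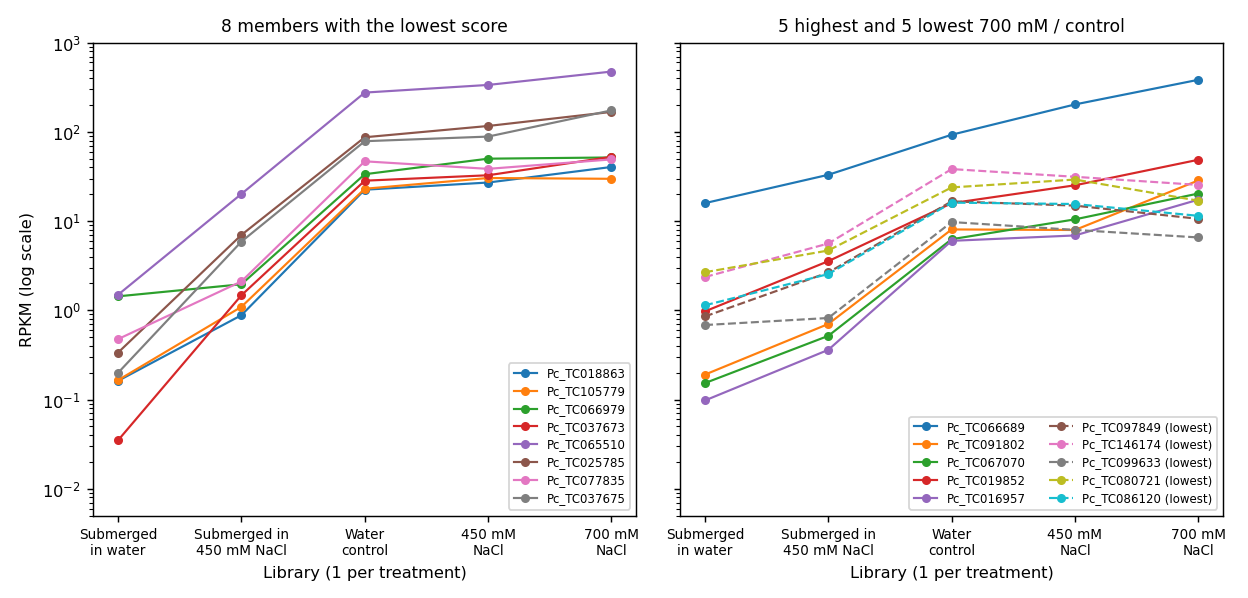
RPKM (log scale) in the 5 libraries for the 8 members with the lowest score (left), and for the 5 members with the highest and the 5 with the lowest ratio of 700 mM NaCl to the water control (right, solid and dashed); each line joins the values of 1 transcript. Submerged libraries are lowest throughout, and Pc_TC066689 reaches 384 RPKM at 700 mM NaCl.

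The library at 700 mM NaCl, which took no part in the score, held the members' highest values. Its level was above the water control for 187 of 200 members, where 38.8% of eligible transcripts were. For 168 members the reads were higher at 700 mM beyond counting error, where 25.5% of eligible transcripts were, and for 6 they were lower, where 44.4% were. The log2 ratio of 700 mM NaCl over the control had a median of 0.57 (quartiles 0.33 and 0.83) among members and −0.11 (quartiles −0.35 and 0.15) over all eligible transcripts. In plain RPKM the median member was at 1.5 times its control level. At least 2-fold higher were 28 members (14.0%), where 1.34% of eligible transcripts were. No member was at least 2-fold lower, where 1.89% were.

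The ratio to control uses a library that also entered the score, and the rule favours members whose control value is high. The level at 700 mM NaCl contains no value of that library, but it is not free of the rule. The rule favours abundant transcripts, and levels carry over from library to library. Eligibility set a floor of 5 RPKM in the control and at 450 mM NaCl but not at 700 mM. Ranks in these libraries are therefore not on a like base and describe the set only. The median member ranked at the 74.2nd percentile of eligible transcripts at 700 mM NaCl, the 65.8th at 450 mM and the 58.0th in the control. The order of the members by level was much alike in both libraries, with a Spearman rho of 0.94 between 700 mM NaCl and the control across 200 transcripts, whose abundance and length are common to both.

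**Figure D4:**
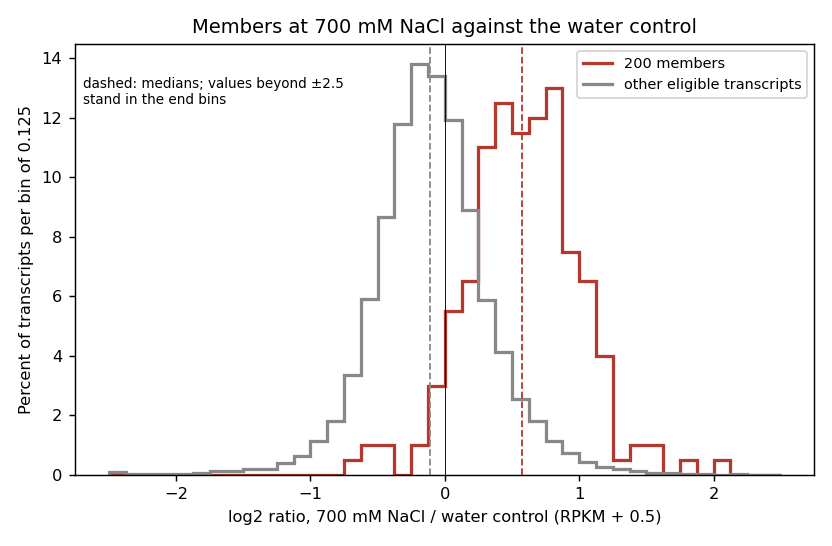
Distribution of the log2 ratio (RPKM + 0.5) of 700 mM NaCl to the water control, as percent of transcripts per bin, for the 200 members (red) and the other eligible transcripts (grey), with medians dashed. The members centre on 0.57, and 187 of 200 lie above 0.

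The lower dose lay between. At 450 mM NaCl 167 members were above the control, where 48.4% of eligible transcripts were, with a median log2 ratio of 0.25 (quartiles 0.09 and 0.40) against −0.01. After median-of-ratios scaling the number was 189, where 69.1% of eligible transcripts were above the control, and the medians were 0.40 for members and 0.13 for eligible transcripts. Both 450 mM NaCl and the control took part in the score, and the rule favours members with high values in either. The contrast in salt set the score for 185 members, so comparisons with this dose are not free of the rule. Only Pc_TC066689 was at least 2-fold higher at this dose, where 0.248% of eligible transcripts were, and none was at least 2-fold lower, where 0.212% were. The reads were higher than in the control beyond counting error for 133 members, where 26.8% of eligible transcripts were, and lower for 9, where 29.5% were. Between the doses, 176 members were higher at 700 mM than at 450 mM, where 36.3% of eligible transcripts were, with a median log2 ratio of 0.31 against −0.09. At least 2-fold higher at 700 mM than at 450 mM were 3 members, where 0.547% of eligible transcripts were, and none was at least 2-fold lower, where 0.736% were. Levels that went up step by step over control, 450 mM and 700 mM NaCl were seen in 148 members (74.0%), where 18.3% of eligible transcripts did so, and levels that went down step by step in 5, where 33.6% did. The full order, with submergence in water lowest, then submergence in salt, control, 450 mM and 700 mM NaCl, was found in 143 members, where 12.8% of eligible transcripts had it; the place of the submerged libraries in it is set by the rule. Members with a higher ratio at 450 mM tended to have a higher one at 700 mM, with r = 0.61 (Pearson) and rho = 0.57 (Spearman) across 200 transcripts, both ratios being taken to the same control.

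Among the 3 libraries of plants not submerged, 700 mM NaCl held the highest value for 170 members, 450 mM NaCl for 19 and the control for 11. For all eligible transcripts the share with the highest of these 3 values at 700 mM was 26.7%. The eligible shares for 450 mM NaCl and for the control among these 3 were not counted. The median ratio of 700 mM NaCl to control was higher among members than among eligible transcripts in each class of control level and length. The highest value was at 700 mM for 58 of 64 members with 5 to 10 RPKM in the control, 80 of 98 with 10 to 50 RPKM, and 32 of 38 at 50 RPKM or more, with median log2 ratios to control of 0.69, 0.52 and 0.57. Eligible transcripts in the same classes had medians of −0.09, −0.13 and −0.06. Their share with the highest value at 700 mM was not counted by class, so the class counts describe the members only. By length, the medians among members were 0.48 for 82 transcripts under 500 nt, 0.65 for 49 of 500 to 1000 nt and 0.66 for 69 longer ones, against −0.11, −0.10 and −0.11 for eligible transcripts.

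The 28 members at least 2-fold higher at 700 mM NaCl had median levels of 0.286 RPKM under plain water, 1.27 under salt water, 8.56 in the control, 11.1 at 450 mM and 19.8 at 700 mM NaCl. Of the 28, 17 had 5 to 10 RPKM in the control, a class that held 64 members and 7600 of the 21736 eligible transcripts. The control is also the denominator of the ratio that chose the 28, so a low control value can favour entry. How many eligible transcripts at least 2-fold higher at 700 mM lay in this class was not counted, so the 17 describe the members only. Pc_TC066689 (1032 nt) had the highest ratio, with 15.9 RPKM under plain water, 33.1 under salt water, 92.9 in the control, 203 at 450 mM and 384 at 700 mM NaCl. It was 4.13 times the control at 700 mM (4.01 to 4.25) and 2.19 times at 450 mM (2.12 to 2.26), yet 5.84-fold lower under plain water (5.50 to 6.21).

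Pc_TC091802 (532 nt) was higher at the upper dose alone. It stood at 0.190 RPKM under plain water, 0.703 under salt water, 8.06 in the control, 7.95 at 450 mM and 28.6 at 700 mM NaCl, which is 3.54 times the control at 700 mM (3.07 to 4.10) and 0.986 times at 450 mM (0.823 to 1.18). Pc_TC016957 (1815 nt) had 0.0976 and 0.361 RPKM under plain and salt water, 6.01 in the control, 6.91 at 450 mM and 17.4 at 700 mM NaCl. It was at 2.89 times the control at 700 mM (2.64 to 3.17) and already slightly above it at 450 mM, at 1.15 times (1.03 to 1.28). Pc_TC067070 (2814 nt) and Pc_TC019852 (676 nt) were higher at 450 mM by a wider margin. Pc_TC067070 had 0.153 RPKM under plain water, 0.517 under salt water, 6.27 in the control, 10.5 at 450 mM and 20.4 at 700 mM NaCl. Pc_TC019852 had 0.974 and 3.56 RPKM under plain and salt water, 15.9 in the control, 25.2 at 450 mM and 48.7 at 700 mM NaCl.

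A minority of 13 members stood below the control at 700 mM NaCl, 6 of them beyond counting error. Pc_TC097849 (845 nt) had the lowest ratio, with 0.854 RPKM under plain water, 2.66 under salt water, 16.7 in the control, 14.9 at 450 mM and 10.6 at 700 mM NaCl, or 1.57-fold lower than the control at 700 mM (1.40 to 1.76). Pc_TC146174 (595 nt) had 2.36 and 5.61 RPKM under plain and salt water, 38.3 in the control, 31.4 at 450 mM and 25.5 at 700 mM NaCl. These were lower at each dose step. Pc_TC080721 (1577 nt) was not: it had 2.67 and 4.68 RPKM under plain and salt water, 23.9 in the control, 29.2 at 450 mM and 16.9 at 700 mM NaCl. The other members with the lowest ratios were Pc_TC099633 (407 nt), at 0.684 and 0.820 RPKM under plain and salt water, 9.76 in the control, 7.97 at 450 mM and 6.56 at 700 mM NaCl, and Pc_TC086120 (445 nt), at 1.14 and 2.55 RPKM under water, 16.1 in the control, 15.6 at 450 mM and 11.5 at 700 mM NaCl. The 13 members had median submergence ratios of −3.34 in water and −2.43 in salt on the log2 scale. Across all 200 members the ratio of 700 mM to control was hardly related to the submergence ratios, with a Spearman rho of 0.07 in water and −0.03 in salt. The rule kept only low submergence ratios, so these values do not describe the eligible transcripts. The ratio in water also shares the control library.

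The pattern did not stop at the 200th transcript. The 3 members just inside the threshold had scores of −2.29 (Pc_TC098785), −2.28 (Pc_TC097350) and −2.28 (Pc_TC134559), and the 3 just outside −2.28 (Pc_TC015393), −2.27 (Pc_TC124540) and −2.27 (Pc_TC077449). Pc_TC134559 stood at 0.413 RPKM under plain water, 0.95 under salt water, 5.18 in the control, 6.54 at 450 mM and 10.1 at 700 mM NaCl, and Pc_TC015393 at 0.595, 1.67, 7.82, 10.02 and 15.5 RPKM in the same libraries. Nothing in these values marks a break. By rank of the score, the median log2 ratio of 700 mM NaCl over control stood at 0.57 for ranks 1 to 200, 0.51 for ranks 201 to 400, 0.44 for ranks 401 to 800, 0.37 for ranks 801 to 1600 and −0.14 for all later ranks. The share with the highest of the 3 values out of water at 700 mM was 85.0%, 81.5%, 74.5%, 69.6% and 22.9% in the same order. The score and this ratio share the control library.

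**Figure D5:**
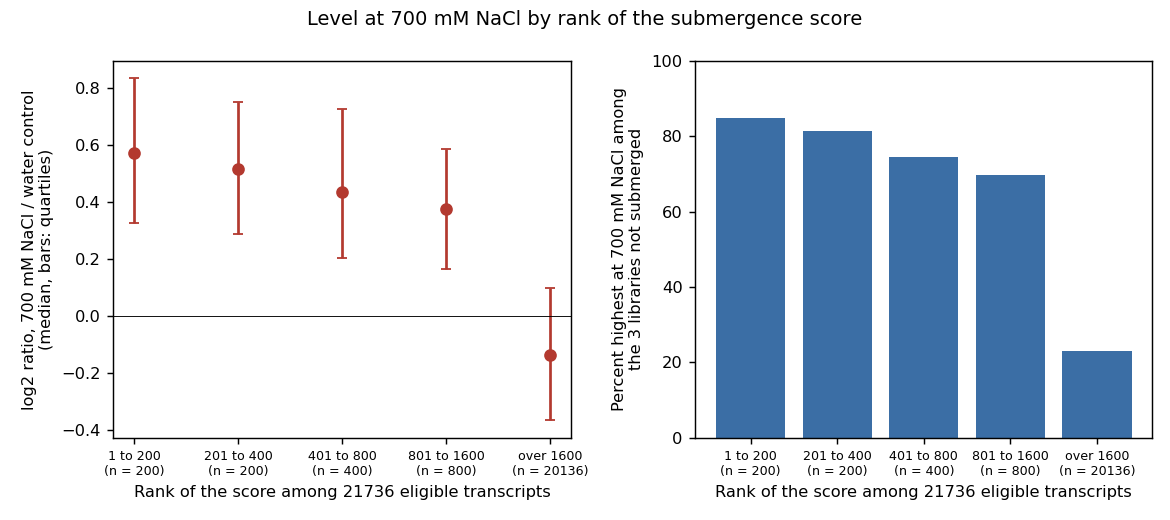
Eligible transcripts grouped by rank of the submergence score, rank 1 being the lowest: median and quartiles of the log2 ratio (RPKM + 0.5) of 700 mM NaCl to the water control (left), and percent of transcripts whose highest value among the 3 libraries of plants not submerged was at 700 mM NaCl (right). The 200 members have a median of 0.57 and a share of 85.0%, against −0.14 and 22.9% for the ranks over 1600.

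The members were shorter than the eligible transcripts as a whole, with a median assembled length of 680 nt (quartiles 318 and 1242) against 1024 nt (414 and 1833). This was not particular to them. The median length was 647 nt for score ranks 201 to 400, 682.5 for 401 to 800, 701 for 801 to 1600 and 1060 for later ranks. Lengths under 500 nt made up 41.0% of members and 29.9% of eligible transcripts, and lengths over 2000 nt 8.50% and 21.2%. Lengths are the smallest that the RPKM steps allow, so some may be too short. Length took no part in the rule, though short transcripts carry fewer reads at the same RPKM.

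The rule set the direction of the submergence ratios and their place past the 2-fold limit. The size of the ratio is uncertain for members with few reads under water. The steps between RPKM values gave read totals from 56638113 in the water control to 78997383 under plain water. The median member had 30 reads under plain water, 112 under salt water, 680.5 in the control, 860 at 450 mM and 977.5 at 700 mM NaCl, and 41 members had fewer than 10 reads under plain water. How many eligible transcripts had fewer than 10 reads there was not counted. Low values under water chose the members, so these low read numbers describe the set. All 200 were at least 2-fold lower in both submergence contrasts beyond counting error, where 5.9% of eligible transcripts were, and 199 at least 4-fold, where 1.32% were. These intervals cover counting error only and were taken on the values that chose the members, so the counts describe the set and test nothing.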

How the data were processed

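Per the series text, the authors used NGS QC Toolkit to filter reads, aligned them with *Porteresia* transcripts and calculated the deposited RPKM of each transcript in each library. The aligner, all versions, the assembly and the counting of reads that fit several transcripts are not given in these sources. RPKM was used as deposited, and log2 ratios added 0.5 to both values, which understates differences of low transcripts. Library totals, lengths (minimum 200 nt) and whole reads were solved from the steps between RPKM values for all 21736 eligible transcripts. Every solved value lay within 9.8e-05 of a whole read. The smallest length with whole reads was taken, so the true length and reads of some transcripts may be a multiple, which would make the printed ones too low and their intervals too wide. The recovery and the membership rule were tested on simulated data. For the rule, all simulated transcripts had the same length and counting noise only, and the lowered ones began well above the RPKM floor. This setting was easier than the data, so it does not show how the rule does for transcripts near the floor. Reads served only for exact 95% intervals (Clopper-Pearson, on the ratio of reads).

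With 1 library per treatment no test was run. Counts use a limit of 2-fold and stand beside the same over all eligible transcripts. Members, rules and lists were chosen with earlier results of these data known, and the groups of score rank and of transcript numbers after their values were seen. Named transcripts were the 8 lowest scores, the 4 highest in the control, the 5 highest and 5 lowest ratios of 700 mM NaCl to control, the 3 largest differences between contrasts each way, and the 3 on each side of the threshold. No gene list could be applied. Alternatives were pseudocounts of 0.1 and 1, other scalings, RPKM floors of 1 and 10, 100 or 400 members, no requirement above 0, and a limit to differences beyond counting error. Python 3.11, numpy 2.4.6, pandas 2.3.3 and scipy 1.17.1 were used.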

Additional observations from a re-analysis of the deposited data

How the results depend on the processing

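Each median kept its sign under every alternative run. Where the rule was applied again with another pseudocount, another scaling, a floor of RPKM 1 or no requirement above 0, at least 171 of the 200 members stayed. A floor of RPKM 10 kept 134. The medians that moved are given on the log2 scale. With a pseudocount of 0.1 the median submergence ratio was −4.43 in water and −2.95 in salt, their difference 1.37 and submergence in salt over submergence in water 1.58. With a pseudocount of 1 these were −3.25, −2.48, 0.77 and 1.02. Median-of-ratios scaling shifted 450 mM NaCl by 0.16 and 700 mM NaCl by 0.10 relative to the control. It gave −2.81 for submergence in salt over 450 mM NaCl, 0.67 for 700 mM over control, 0.40 for 450 mM over control and 0.26 for 700 mM over 450 mM. Under it 164 members were highest at 700 mM, where 25.4% of eligible transcripts were among the 3 libraries not submerged, and 40 were at least 2-fold above the control, where 1.88% of eligible transcripts were. The 100 lowest scores had −4.13 in water, −3.13 in salt and 17 members at least 2-fold higher at 700 mM. The 400 lowest had −3.25, −2.29 and 53. Over these 2 sizes the changed count follows from the changed number of members. A floor of RPKM 1 gave 1.02 for submergence in salt over submergence in water and 0.79 for the difference of contrasts. A floor of 10 gave 1.42 and 1.11, and −2.5 for submergence in salt over 450 mM NaCl. Members at least 2-fold lower at 700 mM numbered 0, but 1 with a pseudocount of 0.1 and 1 among the 400 lowest scores. The cause of the other shifts was not tested. The limit to differences beyond counting error kept all 200. Without the requirement of RPKM above 0, 12 transcripts at 0 under plain water entered and the median ratio of 700 mM to control was 0.58. No paired analysis was possible because each treatment has 1 library and no result comes from a test.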

Other observations

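Transcript numbers held a few close neighbours among the members. There were 6 pairs of consecutive numbers, and the longest run, with a gap of 1 number, was Pc_TC118560, Pc_TC118561, Pc_TC118563 and Pc_TC118564. Pairs and runs were not counted over the eligible transcripts, so it is unknown whether these are more than usual. Under plain water these 4 stood at 0.437, 0.358, 1.81 and 0.177 RPKM, against 10.4, 10.003, 41.2 and 6.02 RPKM in the water control. The number between them, Pc_TC118562, was lowered far less, with 4.76 RPKM under plain water and 7.43 in the control. How the numbers were assigned is not given in the sources used here, and neighbours can be parts or copies of 1 gene.

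Over all members, 88 eligible transcripts carried the number directly before or after a member without being one. Their median log2 ratio was −0.21 for submergence in water over the control and 0.02 for submergence in salt over 450 mM NaCl, near the −0.08 and 0.02 of all eligible transcripts. At least 2-fold lower in both contrasts were 12 of them (13.6%), where 7.41% of eligible transcripts were. All of these values were chosen for a look after the numbers had been seen.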
